A study of Mus musculus with 9 samples.

Results

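The genes described here encode the proteins that copy DNA and supply its building blocks. The 55 genes were picked for the functions their names carry, with earlier results of these data known, and all 55 were found among the 20418 gene symbols of the tables. They were divided by role into origin licensing (10 genes), helicase activation (7), primase and polymerases (9), clamp, clamp loader and single-strand binding (9), lagging strand maturation (4), deoxynucleotide supply (7), chromatin assembly with DNA methylation upkeep and histone mRNA (5), and E2F transcription factors (4). Symbols follow the tables, in which Cdc45l, Orc2l and Orc6l are the genes now called Cdc45, Orc2 and Orc6.

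RNA sequencing was done on CD8+ T cells taken from spleens of C57BL/6 mice, females 6 weeks of age, with no genetic change named. Cells were left untreated or received 1 of 2 cytokines, IL-2 or IL-15. Each was given in a low dose (1 nM) and a high dose (500 nM), with cells taken at 4 h and at 24 h, which makes 9 conditions. Each condition had 1 library, made from a pool of 3 samples treated alike, so no condition was repeated. The untreated library has no culture time in the labels, and time in culture without cytokine cannot be told apart from treatment in comparisons with it.

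Before a cell divides, origins are licensed when the origin recognition complex, Cdc6 and Cdt1 load the MCM ring onto DNA. The kinase Cdc7 with Dbf4, and Mcm10, Cdc45 and GINS, then turn the ring into a working helicase. Most of these genes are known targets of E2F transcription factors, which are held back by pocket proteins in resting cells such as naive T cells. IL-2 and IL-15 signal through shared receptor chains, IL-2Rβ and the common γ chain, and both are known to drive T cell proliferation.

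Depth ran from 27158143 to 48799962 counts per library with 1 transcript per gene, and no 2 libraries held identical values. All 55 genes passed the filter on low counts, which left 13479 genes tested. The T cell markers were detected throughout, with summed levels of 10 genes between 3091 and 4963 CPM (read counts scaled to library size). Markers of other cells were present too and differed between libraries. The summed level of 9 myeloid markers was 1926 CPM untreated, 133.4 to 264.4 at 4 h, 633.7 and 821.8 at 1 nM and 24 h, and 25.41 and 27.83 at 500 nM and 24 h. These markers did not all move alike. Lyz2 was at 20.86 CPM untreated, 18.63 to 23.66 at 4 h, and 137.6 and 217.0 at 1 nM and 24 h. Cd68 was at 21.11 CPM untreated and 38.59 and 41.7 at 1 nM and 24 h. The rest were below untreated at 1 nM and 24 h, such as Csf1r (338.3 untreated, then 21.53 and 41.32). For 9 B cell markers the sum was 691.9 untreated, 312.0 to 492.4 at 4 h, 696.9 and 705.4 at 1 nM and 24 h, and 207.6 and 255.7 at 500 nM and 24 h, with Pax5 at 0 in 6 of 9 libraries. The 7 erythroid, 5 dendritic and 5 NK markers summed to 4.243 to 92.62, 15.88 to 115.6 and 15.3 to 186.1 CPM, each highest untreated, with Ncr1 at 0 in 3 libraries. Most of the untreated NK sum came from Tyrobp (94.72 CPM) and Fcer1g (88.43), beside 2.906 for Klrb1c, 0.06457 for Klra8 and 0 for Ncr1. Single markers did not all follow their sum. Batf3 of the dendritic list was at 9.685 CPM untreated, and at 13.37 with IL-2 and 5.757 with IL-15 at 500 nM and 24 h. The 3 CD4+ T cell markers summed to 17.34 to 31.8 CPM, mostly from Foxp3. The part these cells play in the results below was not tested, and in pooled cells a smaller share of a cell type and less RNA per cell cannot be told apart.

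Promoter sequences are shown first because most of these genes are known E2F targets. A larger share of E2F words could thus be expected from the choice of genes. Whether E2F factors play a part in the changes below was not tested. RefSeq promoters (GRCm38.p6, 250 bases before and 50 after the start site) were matched for 48 of the 55 genes, with 59 promoters in all. The words TTTGGCGC, TTTCGCGC, TTTCCCGC, TTTGGCGG and TTTCCCGG, which are forms of the E2F site, were searched on both strands. Overlapping words were counted separately. Any of them was present in 20 of 59 promoters (33.9%), against 1179 of 32851 promoters in the whole table (3.59%). The words did not all go the same way. TTTCCCGG was in 0 of 59 promoters, against 1.28% of the table. Each other word was in 8.47% to 13.6% of the 59, against 0.323% to 1.07% of the table. The CCAAT word, on either strand, was in 35 of 59 (59.3%) against 37.4% of the table. A match of letters is a description and does not show that a factor binds there.

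Below are the 250 bases before the start site of Uhrf1 and Cdc6, the pair with the largest dose change at 24 h among genes that hold a word, read on the gene's strand with the word in capitals. The Uhrf1 sequence is chr17:56304063-56304312 on the plus strand and the Cdc6 sequence is chr11:98907901-98908150 on the plus strand.
Uhrf1: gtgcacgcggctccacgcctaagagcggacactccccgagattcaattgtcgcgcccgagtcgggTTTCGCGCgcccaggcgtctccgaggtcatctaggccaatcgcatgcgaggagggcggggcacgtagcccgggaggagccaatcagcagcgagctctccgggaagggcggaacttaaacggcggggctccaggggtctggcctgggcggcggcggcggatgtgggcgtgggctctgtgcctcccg
Cdc6: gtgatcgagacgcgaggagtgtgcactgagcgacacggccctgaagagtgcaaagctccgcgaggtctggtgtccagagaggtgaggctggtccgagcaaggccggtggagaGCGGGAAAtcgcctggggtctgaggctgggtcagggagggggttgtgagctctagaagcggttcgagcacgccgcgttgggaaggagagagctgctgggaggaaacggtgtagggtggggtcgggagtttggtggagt

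Stretches of 30 bases around the word are shown for 5 further genes that span the range of responses described below. The MCM ring genes Mcm5 (chr8:75109345-75109374, plus strand) and Mcm6 (chr1:128359734-128359763, minus strand) rose strongly. The clamp loader gene Rfc3 (chr5:151651200-151651229, minus strand) was already high at 4 h, Cdt1 (chr8:122568035-122568064, plus strand) fell at 4 h, and Rpa1 (chr11:75348582-75348611, minus strand) was not called for dose at either time. Words on the other strand appear as their reverse complement. In each stretch 1 word is in capitals. The Mcm5 stretch also holds TTTGGCGC on the other strand, overlapping the word shown and beginning at -149, and the Rfc3 stretch holds TTTCCCGC on the other strand from base 1 after the start site, both left in lower case outside the capitals.
Mcm5: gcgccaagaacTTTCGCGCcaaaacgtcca
Mcm6: gattggacgggTTTGGCGCgaagtagctca
Rfc3: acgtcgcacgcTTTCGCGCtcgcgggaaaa
Cdt1: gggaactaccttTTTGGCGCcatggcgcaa
Rpa1: attctgtctgtCCGCCAAAggactgggcgg

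The 29 words found lay on both sides of the start site. Of these, 14 began after it and 4 began within the 100 bases before it, and 8 genes held words at several places. The dose change at 24 h, defined below, had a median of 1.96 (log2) in the 20 genes with a word and 1.97 in the 28 genes without. Genes with a word ranged from 0.29 to 3.42, and those without from 0.07 to 3.48, so the ranges overlapped almost entirely.

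**Figure D1:**
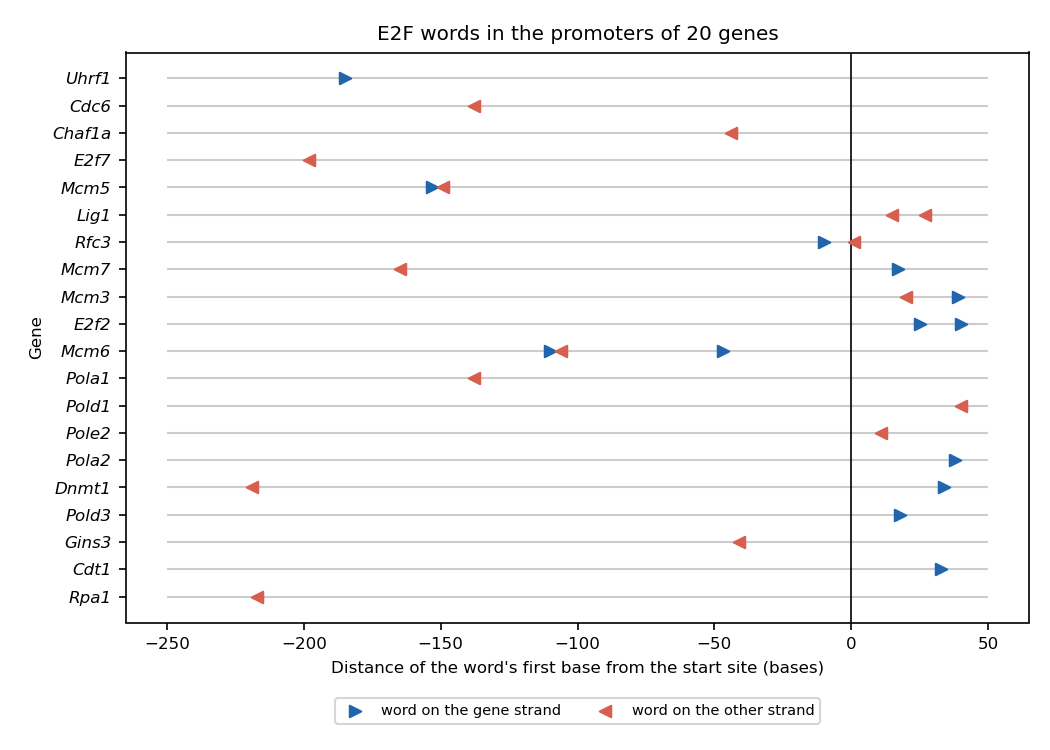
Position of each E2F word (first base, in bases from the start site at 0) in the promoters of the 20 genes that hold a word, 1 line per gene, ordered from the largest dose change at 24 h at the top; triangles show the strand. Of 29 words, 14 lie after the start site.

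Levels are given in CPM after TMM scaling, with IL-2 before IL-15 wherever a pair of values is given. Changes are log2 differences ± standard error from edgeR's quasi-likelihood test, averaged over both cytokines, with p-values adjusted by Benjamini-Hochberg over all 13479 genes and called below 0.05. Because no condition was repeated, the error comes from 3 residual degrees of freedom, that is, from how far the IL-15 to IL-2 difference varied between conditions.

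Nearly all of these genes were highest after 24 h at high dose. Summed over the 55 genes, the level was 2806 CPM untreated, 2857 to 2968 in the 4 libraries of 4 h, 4097 and 2832 at 1 nM and 24 h, and 12270 and 12010 at 500 nM and 24 h. At 24 h, 51 of 55 genes rose with 500 nM against 1 nM (15.6% of all genes tested rose), and none fell (15.6% of all fell). The median change was 1.99 in the 55 genes and -0.04 in all genes tested. At 500 nM, 51 of 55 rose from 4 h to 24 h (13.3% of all) and none fell (12.9% of all), with a median of 2.32 beside -0.04 in all genes tested. Both libraries of 500 nM and 24 h lay above the 7 others in 54 of 55 genes (98.2%), against 18.6% of all genes tested. The exception was Rfc3. In some of the 54 the margin was small. The lower library of 500 nM and 24 h was at 1.004 times the highest other library for Dck, 1.093 for Pole2 and 1.15 for Rpa1.

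**Figure D2:**
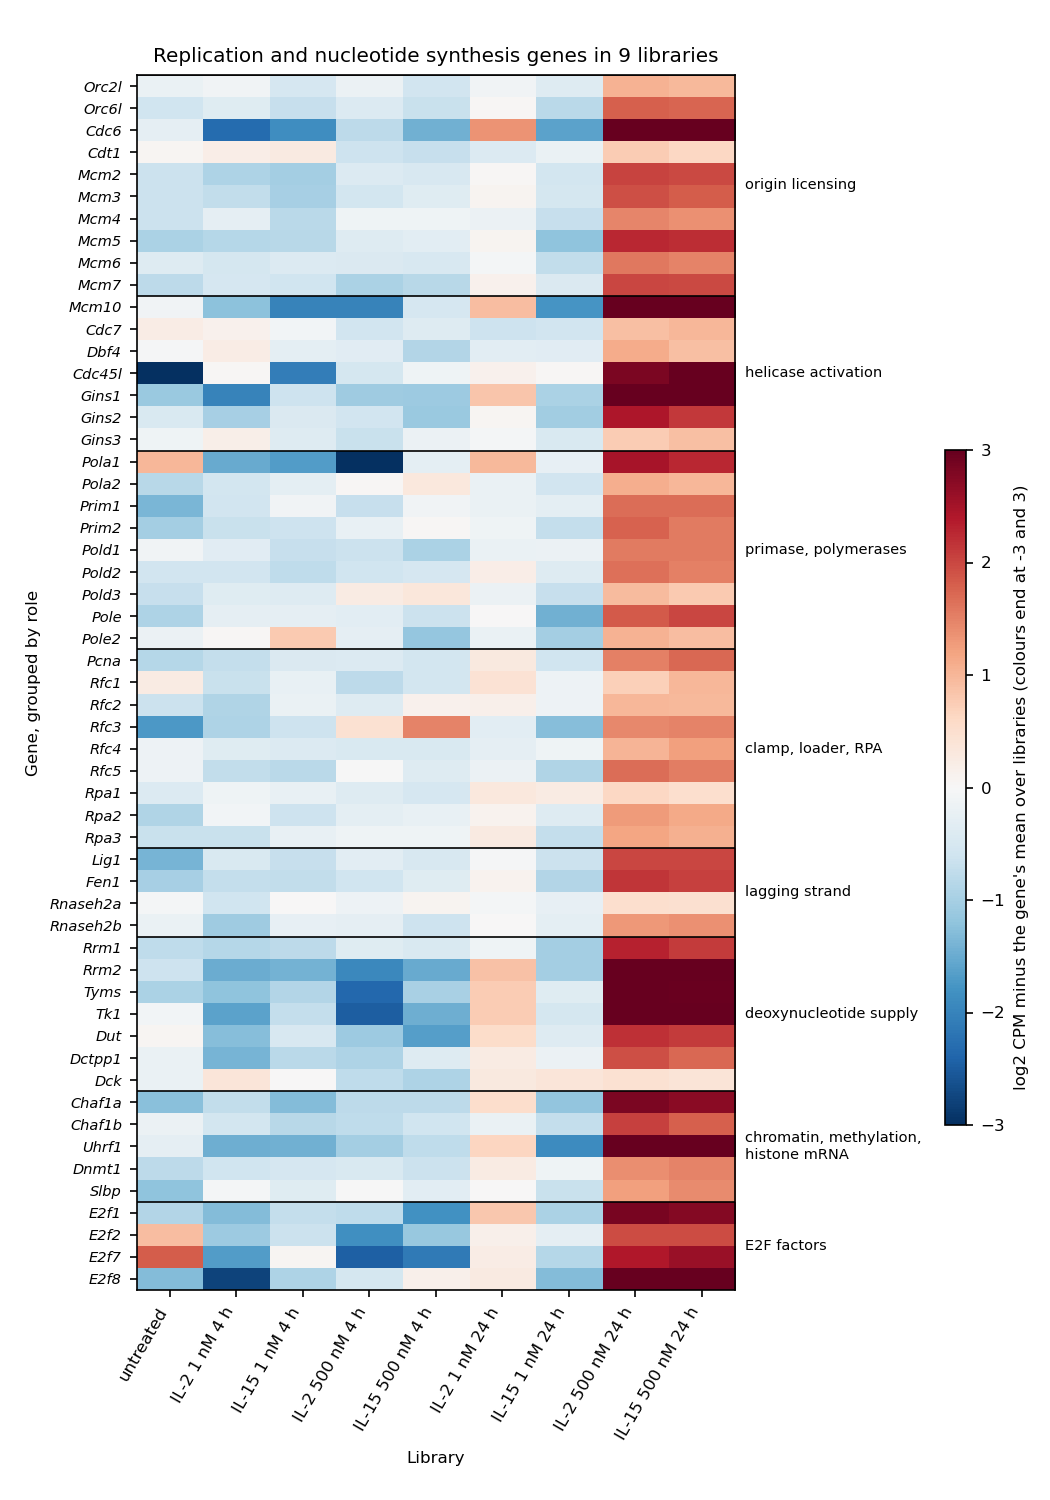
Level of the 55 genes (rows, by role) in the 9 libraries (columns), as log2 of CPM plus 0.05 minus the gene's mean over libraries, with colours ending at -3 and 3. The columns of 500 nM and 24 h are red in nearly every row. IL-2 at 1 nM and 24 h is pale red in many rows, among them Cdc6, Mcm10, Rrm2, Uhrf1 and E2f1.

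All 10 origin licensing genes rose with dose at 24 h, with a median of 2.11. Cdc6, the ATPase that helps load the MCM ring, was at 3.04 CPM untreated. At 4 h it was at 0.70 and 0.981 with 1 nM and at 2.12 and 1.31 with 500 nM, and at 24 h at 9.38 and 1.18 with 1 nM and at 43.8 and 38.7 with 500 nM. The groups of 24 h did not overlap, and the dose change was 3.28 ± 0.63 (edgeR adjusted p = 0.00191), or 9.71-fold. Mcm5 was at 85.7 CPM untreated, at 91.2 and 93.3 with 1 nM and 127 and 135 with 500 nM at 4 h, and at 177 and 72.2 with 1 nM and 797 and 771 with 500 nM at 24 h. Its dose change at 24 h was 2.71 ± 0.31 (edgeR adjusted p = 6.9e-05). Mcm2, also part of the ring, was at 87.9 CPM untreated, at 71.7, 67.5, 103 and 98.7 at 4 h, at 139 and 93.4 with 1 nM at 24 h, and at 555 and 540 with 500 nM at 24 h.

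The 6 ring genes kept their spread while they rose. In RPKM, the level scaled to depth and to transcript length, Mcm6 was the highest of the ring in all 9 libraries, at 60.8 untreated and 262 and 247 at 500 nM and 24 h. The lowest ring gene at 500 nM and 24 h was Mcm4, at 71.8 and 68.7 RPKM. The ratio of the highest to the lowest lay between 3.01 and 4.64 in all 9 libraries.

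Cdt1, which brings the ring to origins, moved in both directions. It was at 396 CPM untreated, at 439 and 463 with 1 nM and 250 and 238 with 500 nM at 4 h, and at 290 and 334 with 1 nM and 645 and 592 with 500 nM at 24 h. Its level was thus lower with high dose at 4 h and higher at 24 h, with no overlap at either time. The dose change was -0.88 ± 0.18 at 4 h (edgeR adjusted p = 0.00655) and 0.99 ± 0.18 at 24 h (adjusted p = 0.00126). The call at 4 h is lost without the IL-15 library of 500 nM, where the change is -0.82.

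All 7 helicase activation genes rose with dose at 24 h, with a median of 2.70. Mcm10, which takes part in starting the helicase, was at 6.04 CPM untreated. It was at 2.77 and 1.59 with 1 nM and 1.61 and 4.61 with 500 nM at 4 h, and at 12.4 and 1.89 with 1 nM and 68.9 and 65.7 with 500 nM at 24 h. The dose change at 24 h was 3.41 ± 0.69 (edgeR adjusted p = 0.00264). Cdc45l, a helicase subunit, had 25 counts untreated (0.807 CPM), 8.72 and 1.96 CPM with 1 nM and 5.82 and 7.79 with 500 nM at 4 h, 9.32 and 8.70 with 1 nM at 24 h, and 60.4 and 67.8 with 500 nM at 24 h. Gins3 had the smallest change of the role, at 27.8 CPM untreated, 19.3 to 34.6 at 4 h, 29.2 and 22.3 with 1 nM at 24 h, and 51.6 and 57.0 with 500 nM at 24 h. Its dose change at 24 h was 1.08 ± 0.27, and the call is lost without either IL-15 library of 24 h.

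Among the primase and polymerase genes, 8 of 9 rose with dose at 24 h, with a median of 1.74. Pole, the catalytic subunit of polymerase epsilon, was at 9.91 CPM untreated, 12.1 to 15.8 at 4 h, 19.1 and 6.97 with 1 nM at 24 h, and 68.4 and 76.7 with 500 nM at 24 h. Prim2, a primase subunit, was at 15.6 CPM untreated, 19.9 and 20.5 with 1 nM and 26.9 and 32.3 with 500 nM at 4 h, 29.1 and 19.3 with 1 nM at 24 h, and 108 and 92.3 with 500 nM at 24 h. Both were highest in the libraries of 500 nM and 24 h, with dose changes of 2.58 ± 0.36 for Pole and 2.06 ± 0.25 for Prim2. Pold3, an accessory subunit of polymerase delta, was higher at 500 nM than at 1 nM at both times: 29.3 CPM untreated, 36.7 and 36.4 with 1 nM and 56.2 and 59.5 with 500 nM at 4 h, 41.8 and 29.1 with 1 nM and 91.6 and 81.0 with 500 nM at 24 h. Its change from 4 h to 24 h at 500 nM was 0.57 ± 0.21 and was not called (edgeR adjusted p = 0.0674). Pola1, the catalytic subunit of polymerase alpha, was not called for dose at 24 h (1.88 ± 0.84, edgeR adjusted p = 0.112). It was counted by few reads, between 5 and 310 per library.

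In the clamp, clamp loader and single-strand binding group, 7 of 9 rose with dose at 24 h, with a median of 1.33. Of these calls, that of Rpa3 is lost under 8 of the alternatives and that of Rfc2 under 2. Pcna, the sliding clamp, was at 182 CPM untreated, 200 and 246 with 1 nM and 250 and 227 with 500 nM at 4 h, 405 and 219 with 1 nM at 24 h, and 946 and 1092 with 500 nM at 24 h. Its dose change at 24 h was 1.73 ± 0.26 (edgeR adjusted p = 0.00041). Rfc5, a small clamp loader subunit, was at 71.9 CPM untreated, 45.4 to 79.0 at 4 h, 71.3 and 42.7 with 1 nM at 24 h, and 254 and 233 with 500 nM at 24 h. The large subunit gene Rfc1 was not called (0.68 ± 0.27, edgeR adjusted p = 0.0715), and it was the lowest of the 5 RFC genes at 500 nM and 24 h, at 7.55 and 9.29 RPKM beside 103 and 96.3 RPKM for Rfc5. Rpa1, the large subunit of the single-strand binding protein RPA, was at 110 CPM untreated, 103 to 133 at 4 h, 181 and 174 with 1 nM at 24 h, and 225 and 208 with 500 nM at 24 h. It was higher at 24 h at both doses, and its dose change of 0.29 ± 0.17 was not called (edgeR adjusted p = 0.231). From 4 h to 24 h at 500 nM it rose by 1.01 ± 0.17 (edgeR adjusted p = 0.0011). The RPA gene Rpa2 rose with dose at 24 h by 1.35 ± 0.20.

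Rfc3 was already high at 4 h. It was at 8.27 CPM untreated, at 14.4 and 17.9 with 1 nM and 37.9 and 76.8 with 500 nM at 4 h, and at 22.1 and 11.3 with 1 nM and 74.6 and 77.7 with 500 nM at 24 h. IL-15 at 500 nM thus had the same level at 4 h as at 24 h. The dose change was 1.82 ± 0.36 at 4 h (edgeR adjusted p = 0.0066) and 2.16 ± 0.37 at 24 h (adjusted p = 0.00086), and the change over time at 500 nM was 0.43 ± 0.35 (adjusted p = 0.425). The call at 4 h is lost without the IL-15 library of 500 nM (1.12), without the IL-2 library of 1 nM (1.70) or without the IL-15 library of 1 nM (1.96).

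All 4 genes of lagging strand maturation rose with dose at 24 h, with a median of 1.89. Lig1, the ligase that seals Okazaki fragments, was at 17.9 CPM untreated, 34.0 and 29.02 with 1 nM and 37.4 and 33.6 with 500 nM at 4 h, 45.5 and 30.03 with 1 nM at 24 h, and 186 and 188 with 500 nM at 24 h. The flap nuclease gene Fen1 was at 21.6 CPM untreated, 25.7 to 33.4 at 4 h, 46.3 and 23.2 with 1 nM at 24 h, and 191 and 179 with 500 nM at 24 h. Both were lowest in the untreated library. Rnaseh2a, a subunit of the enzyme that removes ribonucleotides from DNA, moved least, from 47.7 and 42.2 CPM with 1 nM to 70.4 and 69.7 with 500 nM at 24 h, beside 48.1 untreated and 33.1 to 53.0 at 4 h. Its dose change was 0.64 ± 0.22 (edgeR adjusted p = 0.0473), a call lost when transcripts are summed or when any of 4 libraries is left out.

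Of the 7 deoxynucleotide supply genes, 6 rose with dose at 24 h, with a median of 2.65. Rrm2, the small subunit of ribonucleotide reductase, was at 29.6 CPM untreated, 16.3 and 17.2 with 1 nM and 11.9 and 16.02 with 500 nM at 4 h, 84.4 and 22.7 with 1 nM at 24 h, and 541 and 534 with 500 nM at 24 h. It was below the untreated level at 4 h in all 4 libraries and changed 10.7-fold with dose at 24 h (3.42 ± 0.44, edgeR adjusted p = 0.00016). Rrm1, the large subunit, was at 50.9 CPM untreated, 47.96 and 49.97 with 1 nM and 66.8 and 63.4 with 500 nM at 4 h, 79.1 and 42.5 with 1 nM at 24 h, and 427 and 369 with 500 nM at 24 h. Per length, the untreated levels of Rrm1 and Rrm2 were close, at 8.22 and 8.77 RPKM. With IL-2 at 500 nM they were 11.2 and 3.67 RPKM at 4 h and 74.9 and 174 RPKM at 24 h, so Rrm1 was the higher of the 2 at 4 h and Rrm2 at 24 h.

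Genes of thymidine salvage and synthesis also rose. Tk1, thymidine kinase, was at 16.3 CPM untreated, 5.57 and 10.4 with 1 nM and 3.03 and 6.13 with 500 nM at 4 h, 29.1 and 12.0 with 1 nM at 24 h, and 136 and 149 with 500 nM at 24 h. Tyms, thymidylate synthase, was at 4.10 CPM untreated, 1.52 to 4.26 at 4 h, 13.5 and 6.11 with 1 nM at 24 h, and 63.3 and 61.6 with 500 nM at 24 h. The dose changes at 24 h were 2.76 ± 0.44 for Tk1 and 2.65 ± 0.45 for Tyms.

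Dck, deoxycytidine kinase, was the gene of this role that was not called for dose at 24 h. It was at 83.5 CPM untreated, 123 and 95.8 with 1 nM and 55.7 and 50.2 with 500 nM at 4 h, and 118, 123, 130 and 124 at 24 h. The 4 libraries of 24 h lay close together, whatever the dose, while at 4 h both libraries of 500 nM lay below all the others. The dose change was -1.04 ± 0.18 at 4 h (edgeR adjusted p = 0.00318) and 0.07 ± 0.18 at 24 h (adjusted p = 0.81).

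All 5 genes of chromatin assembly, methylation upkeep and histone mRNA rose with dose at 24 h, with a median of 2.38. Uhrf1, which brings the methyltransferase Dnmt1 to newly copied DNA, was at 21.3 CPM untreated, 9.31 and 9.51 with 1 nM and 12.7 and 15.4 with 500 nM at 4 h, 40.7 and 6.94 with 1 nM at 24 h, and 235 and 215 with 500 nM at 24 h. Dnmt1 itself was at 90.1 CPM untreated, 99.5 to 113 at 4 h, 184 and 142 with 1 nM at 24 h, and 411 and 438 with 500 nM at 24 h. The dose change was 3.42 ± 0.53 for Uhrf1 and 1.39 ± 0.19 for Dnmt1. Chaf1a, the large subunit of the histone chaperone CAF-1, was at 5.07 CPM untreated, 4.94 to 7.32 at 4 h, 17.6 and 5.33 with 1 nM at 24 h, and 86.4 and 80.7 with 500 nM at 24 h. Slbp, which binds histone mRNA, was at 104 CPM untreated and already higher at 4 h, at 231 and 187 with 1 nM and 241 and 193 with 500 nM. It then stood at 242 and 151 with 1 nM and 567 and 648 with 500 nM at 24 h.

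All 4 E2F genes rose with dose at 24 h, with a median of 2.75. E2f1, an activator, was at 5.07 CPM untreated, 3.82 and 5.70 with 1 nM and 5.58 and 2.66 with 500 nM at 4 h, 16.6 and 4.85 with 1 nM at 24 h, and 68.7 and 63.9 with 500 nM at 24 h. E2f8, an atypical repressor, was at 1.29 CPM untreated, 0.431 and 1.70 with 1 nM and 2.27 and 3.65 with 500 nM at 4 h, 3.98 and 1.31 with 1 nM at 24 h, and 31.6 and 29.3 with 500 nM at 24 h. Its dose change at 24 h was the largest of the 55 (3.48 ± 0.64, edgeR adjusted p = 0.00151). E2f2, another activator, was at 41.1 CPM untreated, 9.99 and 13.7 with 1 nM and 5.94 and 9.75 with 500 nM at 4 h, 23.9 and 17.7 with 1 nM at 24 h, and 83.5 and 83.9 with 500 nM at 24 h. E2f7, the other atypical repressor, had few counts, with 3.84 CPM untreated, 0.152 to 1.09 at 4 h, 1.23 and 0.553 with 1 nM at 24 h, and 5.75 and 6.62 with 500 nM at 24 h. Its call for dose at 24 h (2.73 ± 0.85, edgeR adjusted p = 0.0284) is lost without the IL-2 library of 500 nM, without the IL-15 library of 1 nM or without the IL-15 library of 500 nM, all of 24 h.

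**Figure D3:**
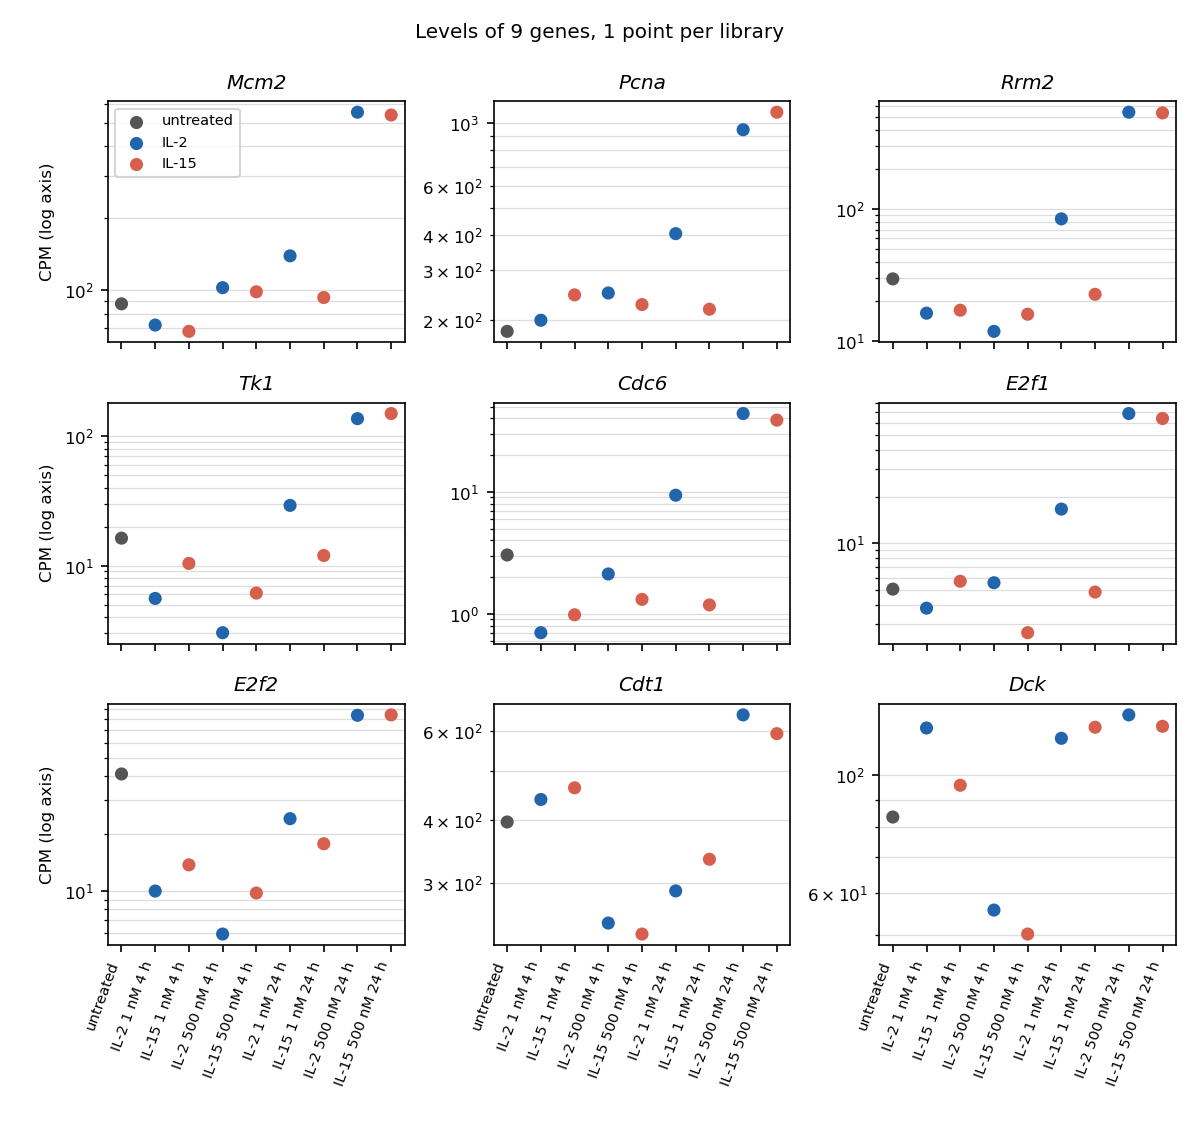
CPM (log axis) of 9 genes in the 9 libraries, 1 point per library, grey for untreated, blue for IL-2 and red for IL-15. Mcm2, Pcna, Rrm2, Tk1, Cdc6, E2f1, E2f2 and Cdt1 are highest in both libraries of 500 nM and 24 h, whereas Dck has about the same level in all 4 libraries of 24 h.

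Few of these genes were called for dose at 4 h. Their changes ran from -1.87 to 1.82. By edgeR, 11 of 55 had an unadjusted p below 0.05, beside 3024 of all genes tested. At that time 1 of 55 rose with 500 nM against 1 nM (5.42% of all genes rose) and 3 fell (4.63% of all fell), with a median change of 0.06 beside -0.02 in all genes tested. The gene that rose was Rfc3, and those that fell were Cdt1, Dck and Pole2. Pole2, an accessory subunit of polymerase epsilon, was at 43.04 and 72.6 CPM with 1 nM and 34.9 and 18.7 with 500 nM at 4 h, and at 37.2 untreated. Its change was -1.18 ± 0.34 (edgeR adjusted p = 0.0464), and the call is lost without the IL-15 library of 1 nM (-0.44) or of 500 nM (-0.77), with transcripts summed (-1.18) and with a cytokine by time term (-1.12). The count of 4 calls becomes 2 without the IL-15 library of 1 nM and 4 h, and 1 without that of 500 nM and 4 h.

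The dose effect was larger at 24 h than at 4 h in 41 of 55 genes (4.06% of all genes tested) and smaller in none (4.76% of all), by the dose by time interaction. The largest difference called was in E2f7, at 4.598 ± 1.253 (edgeR adjusted p = 0.0409), a call lost under 7 alternatives, followed by Rrm2 at 3.67 ± 0.59 (adjusted p = 0.00431) and Tk1 at 3.55 ± 0.61 (adjusted p = 0.00617). Rfc3, which rose at both times, had a difference of 0.35 ± 0.50 (edgeR adjusted p = 0.756). Without the IL-15 library of 500 nM and 24 h, 24 genes were called.

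**Figure D4:**
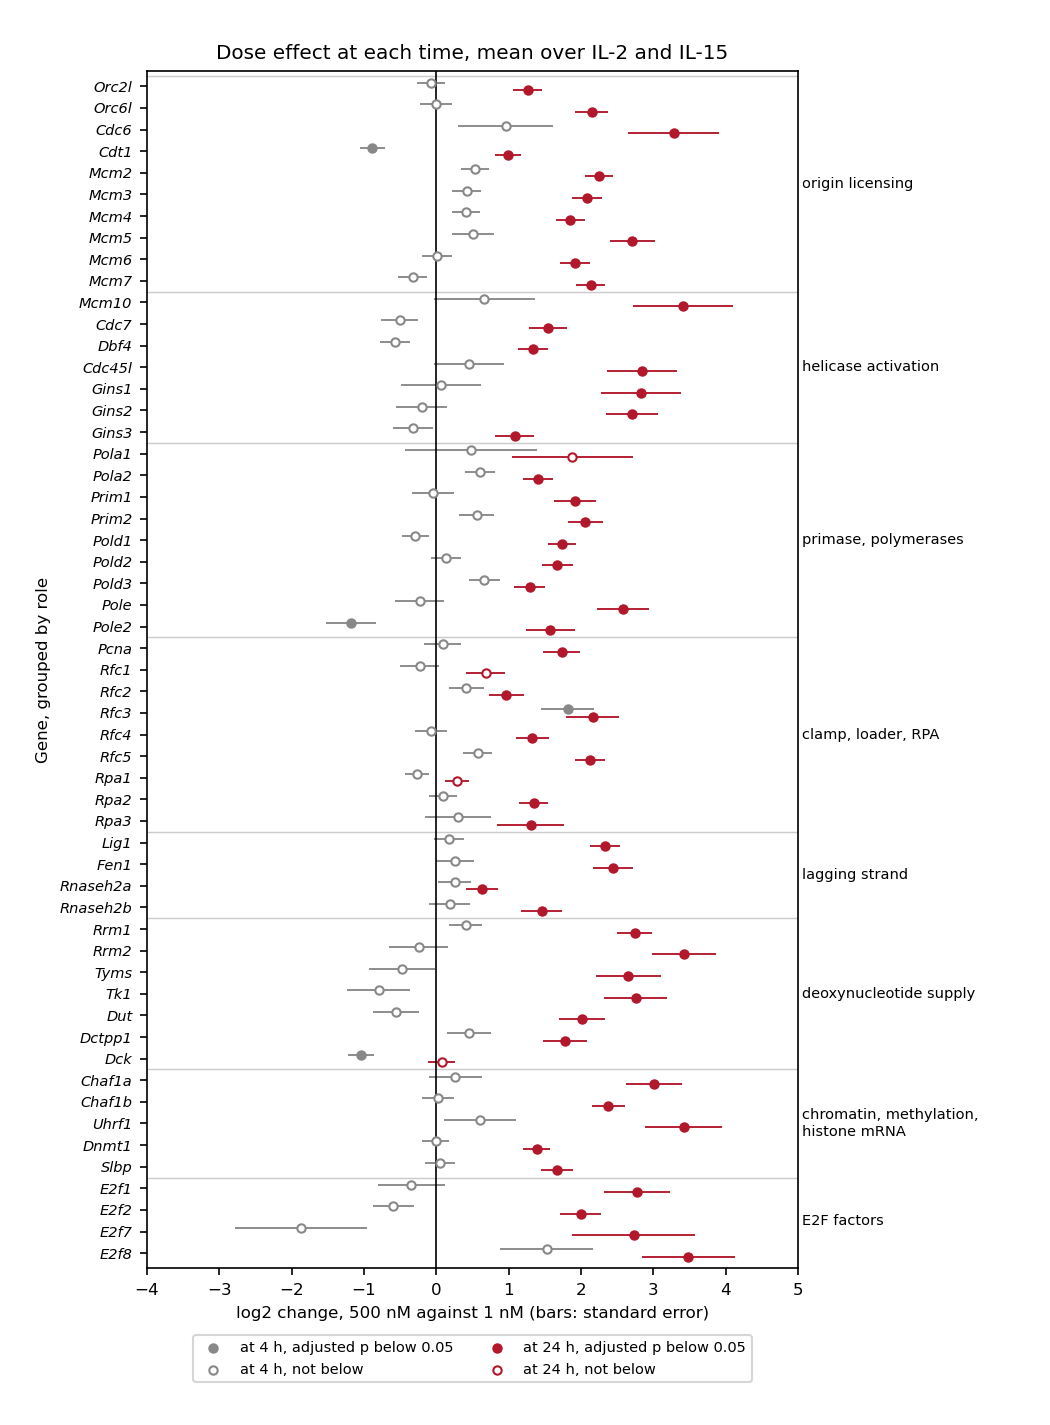
log2 change with 500 nM against 1 nM in each of the 55 genes, at 4 h (grey) and 24 h (red), with standard errors; filled points have an adjusted p below 0.05. At 24 h 51 genes are filled and lie right of 0, and at 4 h Rfc3 is filled on the right and Cdt1, Dck and Pole2 on the left.

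At 1 nM, time changed little that passed the test. None of the 55 genes was called between 4 h and 24 h by edgeR (1.51% of all genes rose and 1.38% fell), 22 of 55 had an unadjusted p below 0.05 beside 2174 of all 13479 genes tested, and the median change was 0.37 beside 0.03 in all. DESeq2 called 8. The count becomes 11 without the IL-15 library of 1 nM and 24 h, 2 without the IL-2 library and 1 without the IL-15 library of 1 nM and 4 h.

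Against the untreated library, 46 of 55 genes rose at 500 nM and 24 h (12.8% of all genes) and none fell (12.3% of all), with a median of 2.15 beside -0.0012 in all genes tested. Cdc45l had the largest change, 6.32 ± 0.82 (edgeR adjusted p = 0.0003), from 25 counts untreated. The 9 genes not called were Cdc7, Cdt1, Dck, E2f7, Gins3, Pola1, Pole2, Rfc1 and Rnaseh2a. Cdt1 lay just outside the threshold, at 0.64 ± 0.22 (edgeR adjusted p = 0.0503). E2f2 and Rpa1, which were called, lose the call under 6 and 2 of the alternatives.

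At 4 h the genes moved both ways against untreated. With 500 nM, 6 of 55 rose (7.92% of all genes) and 5 fell (8.47% of all), shares close to those of all genes. Cdc45l, Lig1, Pola2, Pold3, Rfc3 and Slbp rose, and Cdt1, Dut, E2f2, E2f7 and Tk1 fell. The fall was -2.41 ± 0.33 for E2f2 (edgeR adjusted p = 0.00047), -4.42 ± 1.02 for E2f7 (adjusted p = 0.0114) and -1.85 ± 0.50 for Tk1 (adjusted p = 0.0256). The myeloid, B cell, erythroid, dendritic and NK marker sums were also lower at 500 nM and 4 h than untreated. So was the T cell marker sum, at 4919 CPM untreated and 3272 and 3777 at 500 nM and 4 h. The CD4+ T cell marker sum was not lower, at 27.22 CPM untreated and 27.27 and 31.8 at 500 nM and 4 h. The calls of E2f2 and Rfc3 held under all alternatives tried, the other 9 did not, and the count of 11 becomes 4 without the IL-15 library of 500 nM and 4 h. With 1 nM at 4 h, 2 of 55 rose (2.75% of all) and 1 fell (3.55% of all). These were Cdc45l (2.65 ± 0.72, edgeR adjusted p = 0.0492) and Slbp (1.00 ± 0.27, adjusted p = 0.0467), which rose, and E2f2 (-1.81 ± 0.33, adjusted p = 0.00762), which fell. None of the 3 calls held under all alternatives. The call was lost under 9 of them for Slbp, 7 for Cdc45l and 1 for E2f2. That count of 3 becomes 0 without the IL-2 library of 1 nM and 4 h, 1 without the IL-15 library of 500 nM and 24 h, 6 without the IL-2 library and 7 without the IL-15 library of 1 nM and 24 h. With 1 nM at 24 h, Cdc45l rose (3.48 ± 0.73, edgeR adjusted p = 0.0366), which is 1 of 55 beside 0.861% of all genes, and none fell (0.786% of all). Without the IL-15 library of 1 nM and 24 h the count becomes 5: the call of Cdc45l is lost and Chaf1a, Lig1, Pcna, Rfc3 and Rrm2 rise. Without the IL-2 library of that dose and time it is lost too, no gene rises and Uhrf1 falls.

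The study set IL-2 beside IL-15 at matched dose and time. Averaged over the 4 matched pairs, none of the 55 genes was called by edgeR in either direction, nor was any other gene (0% of all rose and 0% fell). An unadjusted p below 0.05 was found for 4 of the 55 and for 362 of all genes, and DESeq2 called none of the 55. The median was -0.17 in the 55 genes and -0.01 in all.

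The pairs were also compared 1 by 1. At low dose and 24 h, IL-2 was higher than IL-15 in 50 of 55 genes (90.9%), against 49.2% of all genes tested, with a median log2 ratio of IL-15 to IL-2 of -0.60 beside 0.01 in all. With 1 library each these ratios have no replicate check, and the intervals cover counting error only. IL-15 was at least 2-fold lower in 15 of 55 genes (7.98% of all) and at least 2-fold higher in none (5.84% of all). The ratio of IL-2 to IL-15 was 7.79 for Cdc6 (95% interval 5.87 to 10.9, from 474 and 47 counts), 6.49 for Mcm10 (5.16 to 8.46) and 5.84 for Uhrf1 (5.17 to 6.67). It was 3.72 for Rrm2, 3.46 for Gins1, 3.42 for E2f1, 3.28 for Chaf1a and 2.999 for E2f8. The genes with IL-15 slightly above IL-2 were Cdt1, Rfc4, Dck, Cdc7 and Pold1.

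A fit with all 3 pairwise interactions, which leaves 1 residual degree of freedom and was added after the data were seen, tested that pair. It leaves out the interaction of all 3 factors, so its estimates are not the direct ratios of the pair. Mcm10 (-2.64 ± 0.39, edgeR adjusted p = 0.00254), Uhrf1 (-2.01 ± 0.35, adjusted p = 0.00742) and Rrm2 (-1.53 ± 0.28, adjusted p = 0.0126) were lower with IL-15. These are 3 of 55, beside 0.423% of all genes lower and 0.0148% higher. With median-of-ratios scaling Mcm10 stayed past the threshold (edgeR adjusted p = 0.0278), and Uhrf1 (adjusted p = 0.0703) and Rrm2 (adjusted p = 0.0855) did not. Cdc6, with the largest ratio of counts, was not called (-2.06 ± 0.65, edgeR adjusted p = 0.346). Whether the cytokines differ more at 1 nM than at 500 nM was not tested.

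The IL-2 library at 1 nM and 24 h was the third highest, after both libraries of 500 nM and 24 h, in 34 of 55 genes (61.8%), against 4.75% of all genes tested. It lay above untreated in 43 of 55 genes (78.2%, beside 50.8% of all genes tested), with a median log2 ratio of 0.72, and IL-15 at the same dose and time lay above untreated in 24 of 55 (43.6%, beside 49.3% of all), with a median of -0.06. Their T cell marker sums were 4929 and 4963 CPM, and their myeloid sums 633.7 and 821.8. The IL-2 library had 48799962 counts, the deepest of the 9, and the IL-15 library 38229903.

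At 500 nM and 24 h the cytokines were close, and none of the 55 genes was at least 2-fold higher (3.22% of all) or lower (2.98% of all). The log2 ratio of IL-15 to IL-2 ran from -0.30 for Gins2 to 0.27 for Rfc1, while the middle 50% of all genes tested lay between -0.20 and 0.21. In the fit with all pairwise interactions no gene of the 55, nor any other, was called for this pair (0% rose and 0% fell), and 0 of the 55 had an unadjusted p below 0.05. The estimates of that fit can differ from the direct ratios, as for Cdc6, at -0.98 ± 0.58 in the fit beside a direct ratio of -0.18.

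At 4 h few of these genes differed at least 2-fold between the cytokines. Their shares were near or above those of all genes where IL-15 was higher, and below them where it was lower. With 1 nM, IL-15 was at least 2-fold higher for 3 of 55 genes (5.04% of all), Gins1, E2f7 and E2f8, and lower for 1 (6.91% of all), Cdc45l, with 324 counts for IL-2 and 52 for IL-15. With 500 nM, it was higher for 5 (6.46% of all), Pola1, Mcm10, Tyms, Rfc3 and Tk1, and lower for 1 (4.99% of all), E2f1. These genes were named after their values were seen, and several rest on few counts, such as 5 and 43 for Pola1.

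**Figure D5:**
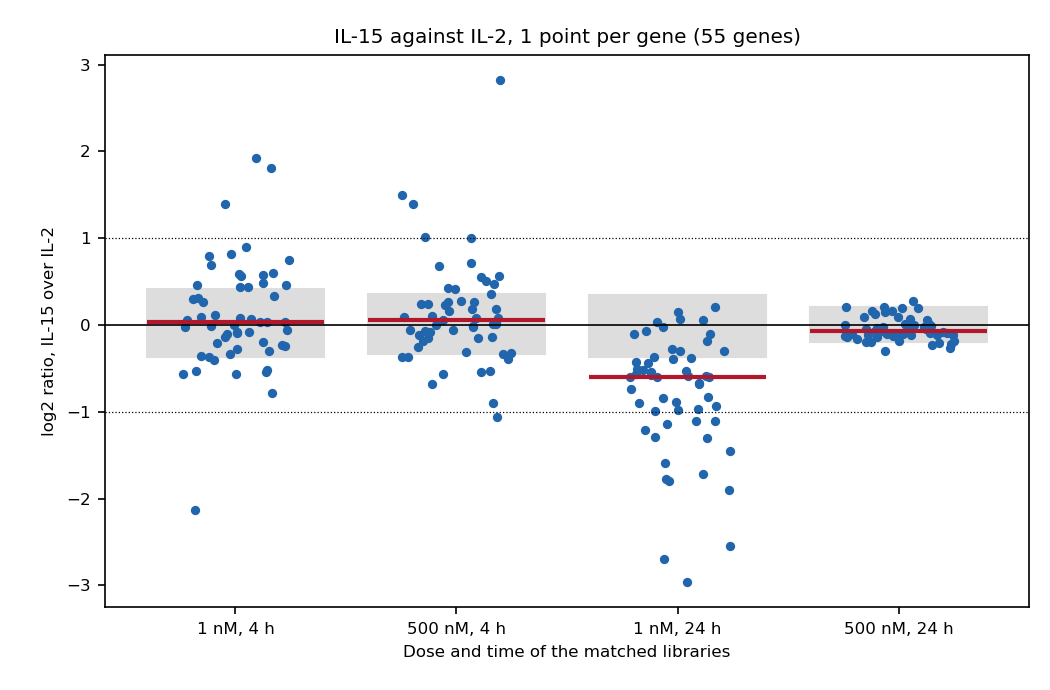
log2 ratio of IL-15 to IL-2 for the 55 genes (points) in the 4 matched pairs; the red bar is their median, the grey box holds the middle 50% of all 13479 genes tested and dotted lines mark 2-fold. At 1 nM and 24 h the median is -0.60 and 15 genes lie at least 2-fold below 0, and at 500 nM and 24 h all 55 lie between -0.30 and 0.27.

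Other genes of the same pathways were counted in 5 lists. For 500 nM against 1 nM at 24 h, 15.6% of all genes tested rose and 15.6% fell, with a median of -0.04. In the same comparison 19 rose and 1 fell among 26 other replication factors, with a median of 1.46. Orc1l, the large subunit of the origin recognition complex, rose by 3.46 ± 0.58 and the topoisomerase gene Top2a by 3.28 ± 0.38. The fall was Pold4, a small accessory subunit of polymerase delta (-2.10 ± 0.21, edgeR adjusted p = 3.4e-05), the reverse of Pold1, Pold2 and Pold3. Of 29 genes of nucleotide synthesis and turnover, 22 rose and 1 fell (median 1.245). The one-carbon enzymes Shmt1 (2.86 ± 0.49) and Mthfd2 (2.35 ± 0.30) rose, and the fall was Ctps2 (-0.86 ± 0.28). Of 14 E2F partners, pocket proteins and cyclins, 8 rose and 1 fell (median 1.30). Ccna2, cyclin A2, rose by 3.05 ± 0.28 and E2f3 by 2.39 ± 0.39, and the pocket protein gene Rbl2 fell by 1.07 on the log2 scale. Of 10 further genes of chromatin copying, 9 rose (median 1.94), led by Cdca7 (2.89 ± 0.39) and Hells (2.87 ± 0.45). Of 19 genes of mitosis, 18 rose (median 2.89), with Bub1 at 3.43 ± 0.49 and Aurkb at 3.21 ± 0.35. Pold4, Ctps2 and Rbl2 were named after their values were seen.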

How the data were processed

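Total RNA of 9 pooled libraries was sequenced on an Illumina instrument after PCR amplification, so counts are not independent molecules. The submitters' processing notes name CASAVA 1.8, Bowtie 0.12.4 and the mouse build mm8. The deposited files give raw read counts per RefSeq transcript, and RPKM values that the authors computed from the same counts and exon length, per the file headers and values. How strand and multi-mapping reads were handled is not stated in the labels or headers.

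Each gene was represented by its transcript of highest mean count. Genes passed filterByExpr (minimum count 10, total 15), and edgeR 4.0.16 (R 4.3.3, TMM scaling, quasi-likelihood F test) was fitted over all 9 libraries with a term for each dose and time, untreated and cytokine, leaving 3 residual degrees of freedom. RPKM was used only to compare levels between genes. Matched ratios used an offset of 1 count, a 2-fold threshold and at least 20 counts in the higher library, with 95% exact counting intervals.

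The members, lists and tests were chosen with earlier results of these data known. Genes with values in every library were, per role, the 2 largest changes and the smallest for 500 nM against 1 nM at 24 h, plus Mcm2, Cdc6, Cdt1, Pcna, Rrm1, Rrm2, Tyms, Tk1, Dck, E2f1, E2f2, E2f7, E2f8, Uhrf1, Dnmt1 and Slbp. From each other list the 2 largest changes were named, and further members where a count was 5 or fewer. Alternatives were DESeq2 1.42.0, median-of-ratios scaling, other filters, summed transcripts, a cytokine by time term, leaving out each treated library, and other folds. Promoters came from RefSeq on GRCm38.p6, and no coordinates were carried between builds.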

Additional observations from a re-analysis of the deposited data

Results flagged for a closer look

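The effect of 500 nM against 1 nM differed between 4 h and 24 h in 41 of the 55 genes, by edgeR's test of the dose by time interaction. It was larger at 24 h in all 41, beside 4.06% of all genes tested with a larger and 4.76% with a smaller effect. Of the 41 calls, 21 held under all alternatives tried. In 3 genes the dose lowered the level at 4 h, past the threshold, and the difference between the times was called: Cdt1, with a difference in log2 change of 1.87 between 24 h and 4 h, Dck, with 1.12, and Pole2, with 2.75.
The interaction call for Dck is lost when any of 5 libraries is left out, and the interaction calls for Cdt1 and Pole2 held under all alternatives tried. For the fall at 4 h, the call held under all alternatives for Dck and was lost under 1 for Cdt1 and 4 for Pole2.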

How the results depend on the processing

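Of the 51 genes called for dose at 24 h, 45 were called under every alternative tried, as were 46 of 51 for time at 500 nM, 40 of 46 for 500 nM and 24 h against untreated, 21 of 41 for the interaction, 2 of 11 for 500 nM and 4 h against untreated and 1 of 4 for dose at 4 h. For 1 nM against untreated, 0 of 3 calls at 4 h and 0 of 1 at 24 h held under every alternative. No call changed its direction. DESeq2 gave 7 calls for dose at 4 h, 8 for time at 1 nM and 5 for 1 nM and 24 h against untreated. Time at 1 nM gave 1 call with no filter and 3 with a cytokine by time term. For 1 nM and 4 h against untreated, 1 was called with median-of-ratios scaling, 1 with transcripts summed and 1 with a cytokine by time term. Leaving out each treated library in turn gave 1 to 6 calls for dose at 4 h, 0 to 11 for time at 1 nM, 24 to 44 for the interaction, 0 to 7 for 1 nM and 4 h against untreated, 1 to 5 for 1 nM and 24 h, and 4 to 15 for 500 nM and 4 h. With 1.5-fold in place of 2-fold, the number of genes that differed between IL-15 and IL-2 at 4 h was 12 for the low dose and 10 for the high dose, and at 24 h 31 for the low dose. With 3-fold it was 1 for the high dose at 4 h and 7 for the low dose at 24 h. The test of the pair at 1 nM and 24 h called 1 gene with median-of-ratios scaling. The cause of these shifts was not tested, and the share of all genes called was not recorded for the alternative fits. The labels give no replicate numbers, so no replicate block was fitted, and IL-2 and IL-15 were matched by dose and time in the fit itself. With 1 library per condition, the error assumes that the cytokine difference is alike across conditions, and the single untreated library adds to every comparison with it.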
